A study of Mus musculus with 15 samples.

Results

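The cyclic nucleotide phosphodiesterases described here are 10 genes: Pde1a, Pde1b, Pde1c, Pde2a, Pde4a, Pde4b, Pde4d, Pde7b, Pde8b and Pde10a. They were taken by symbol from the 54232 gene rows of a count table of mouse striatum, and all 10 had enough reads to be tested among 18278 genes. The striatum came from mice aged 6 months of 3 genotypes, KI-96 (n = 4), E1 (n = 4) and WT (n = 7), with 1 library per mouse. The study's title places these animals among knock-in models of Huntington's disease and concerns toxicity from RAN translation. The labels give KI-96 and E1 as genotype names alone, and the allele, strain, sex and treatment are not described there.

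Phosphodiesterases end the signals of cyclic AMP and cyclic GMP by hydrolysing them. In the striatum these signals carry the effects of dopamine, adenosine and nitric oxide on the medium spiny projection neurons, the principal cells of the tissue. The families differ in what they cleave and in what switches them on: PDE1 enzymes are activated by calcium and calmodulin, PDE2A is stimulated by cyclic GMP, PDE4, PDE7 and PDE8 enzymes prefer cyclic AMP, and PDE10A, which is strongly enriched in spiny neurons, cleaves both. PDE10A loss is a known feature of human Huntington's disease and of several of its mouse models.

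Libraries held 14678565 to 23373551 counts in KI-96, 18199927 to 19533231 in E1 and 17281603 to 26388542 in WT. Several libraries stood apart. KI-96 replicate 3 lay at -73.0 on the first principal component (18.3% of the variance), and the other 14 libraries lay between -23.1 and 34.7. On the second component (16.4%), WT replicates 5, 6 and 7 lay at 32.1, 33 and 30.5, and the other 12 libraries between -39.3 and 19.8. These 3 WT libraries held 23457270 to 26388542 counts, against 17281603 to 18945441 in WT replicates 1 to 4. The labels name no batch, and the part of this split in the comparisons with WT was not tested. Of 15 markers of cortical excitatory neurons, all tested and none at 0 throughout a group, the summed level was 445 to 547 CPM in KI-96, 384 to 2037 CPM in E1 and 346 to 1851 CPM in WT (CPM, counts scaled by library size). It was 2037 and 1404 CPM in E1 replicates 2 and 3 and 1851 CPM in WT replicate 3, against 346 to 547 CPM in the other 12 libraries. The summed level of 8 thalamic and pallidal markers was 379 CPM in KI-96 replicate 4 and 82.55 to 229 CPM in the other 14. All 4 KI-96 and all 4 E1 libraries held 0 to 2 reads of 4 Y-linked genes, as did WT replicate 1 with 0, and the other 6 WT libraries held 2680 to 5755, so genotype and sex cannot be told apart in the comparisons with WT beyond that 1 mouse. The 17 spiny neuron markers were present in every group, with mean log2 CPM of 8.60 to 9.21 in KI-96, 8.83 to 9.39 in E1 and 8.68 to 9.23 in WT.

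Scaled to the length of their merged exons, Pde1b and Pde10a far exceeded the others: Pde1b stood at 239 ± 39.3 CPM per kb in KI-96 (SD, n = 4), 259 ± 47.2 in E1 (n = 4) and 259 ± 30.2 in WT (n = 7), and Pde10a at 104 ± 28.4 CPM per kb in KI-96, 108 ± 25.1 in E1 and 116 ± 21.6 in WT. In WT, 99.6% of genes tested had a lower level per kb than Pde1b and 98.7% a lower one than Pde10a. The 2 genes made up 72.5% ± 2.56 of the summed per-kb level of 21 tested Pde genes in KI-96, 74.3% ± 4.14 in E1 and 74.8% ± 2.06 in WT.

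The stretches upstream of these genes, and of Pde7b and Pde8b, are shown so that the upstream sequences of the 4 genes can be compared. Between mice, Pde7b and Pde8b varied with Pde10a (Pearson's r 0.75 and 0.70) and less with Pde1b (r 0.54 and 0.48). Which start each gene used in these mice cannot be read from counts per gene, and the starts shown for Pde10a and Pde7b lie inside the annotated gene. Each is the 250 bases before the start listed first by RefSeq (GRCm38.p6), 5′ to 3′ on the gene's strand: chr15:103502784-103503033 (plus strand) for Pde1b, chr17:8801495-8801744 (plus strand) for Pde10a, chr10:20548329-20548578 (minus strand) for Pde7b and chr13:95250337-95250586 (minus strand) for Pde8b. Capitals mark a GC box, CCGCCCC, searched on both strands.
Pde1b: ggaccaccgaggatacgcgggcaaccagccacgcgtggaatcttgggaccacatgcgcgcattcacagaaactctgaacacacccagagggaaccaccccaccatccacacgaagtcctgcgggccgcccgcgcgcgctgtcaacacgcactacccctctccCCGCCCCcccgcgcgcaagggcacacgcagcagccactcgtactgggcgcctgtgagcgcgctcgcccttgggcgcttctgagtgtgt
Pde10a: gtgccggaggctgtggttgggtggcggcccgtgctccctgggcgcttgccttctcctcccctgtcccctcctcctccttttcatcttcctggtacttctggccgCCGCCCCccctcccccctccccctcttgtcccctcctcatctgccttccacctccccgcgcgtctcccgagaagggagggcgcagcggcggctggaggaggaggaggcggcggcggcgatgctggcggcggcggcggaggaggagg
Pde7b: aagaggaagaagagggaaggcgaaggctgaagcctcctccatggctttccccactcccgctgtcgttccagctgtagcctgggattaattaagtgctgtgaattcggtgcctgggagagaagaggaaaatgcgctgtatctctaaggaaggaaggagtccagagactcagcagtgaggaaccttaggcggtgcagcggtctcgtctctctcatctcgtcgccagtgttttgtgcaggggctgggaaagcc
Pde8b: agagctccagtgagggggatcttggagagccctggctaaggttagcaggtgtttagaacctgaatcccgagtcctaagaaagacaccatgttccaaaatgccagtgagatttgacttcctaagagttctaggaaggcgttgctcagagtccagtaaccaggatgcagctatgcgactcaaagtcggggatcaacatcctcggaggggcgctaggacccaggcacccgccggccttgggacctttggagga
Pde1b and Pde10a each held 1 GC box, 88 and 146 bases before the start, while these letters were not in the Pde7b and Pde8b stretches. Over all annotated starts a GC box was in 4 of the 31 windows of the 10 genes, 1 each of Pde1b, Pde10a, Pde2a and Pde4a, against 21% of 32851 windows over all genes. GC content was 67.2% for Pde1b, 72.8% for Pde10a, 55.2% for Pde7b and 54.4% for Pde8b, against a median of 52.4% over all windows. The cyclic AMP response element TGACGTCA was in 1.55% of all windows and in 0 of these 31. Its half-site TGACG was in 3 of the 31, 1 each of Pde1a, Pde4a and Pde4b, against 17.8% of all windows.

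**Figure D1:**
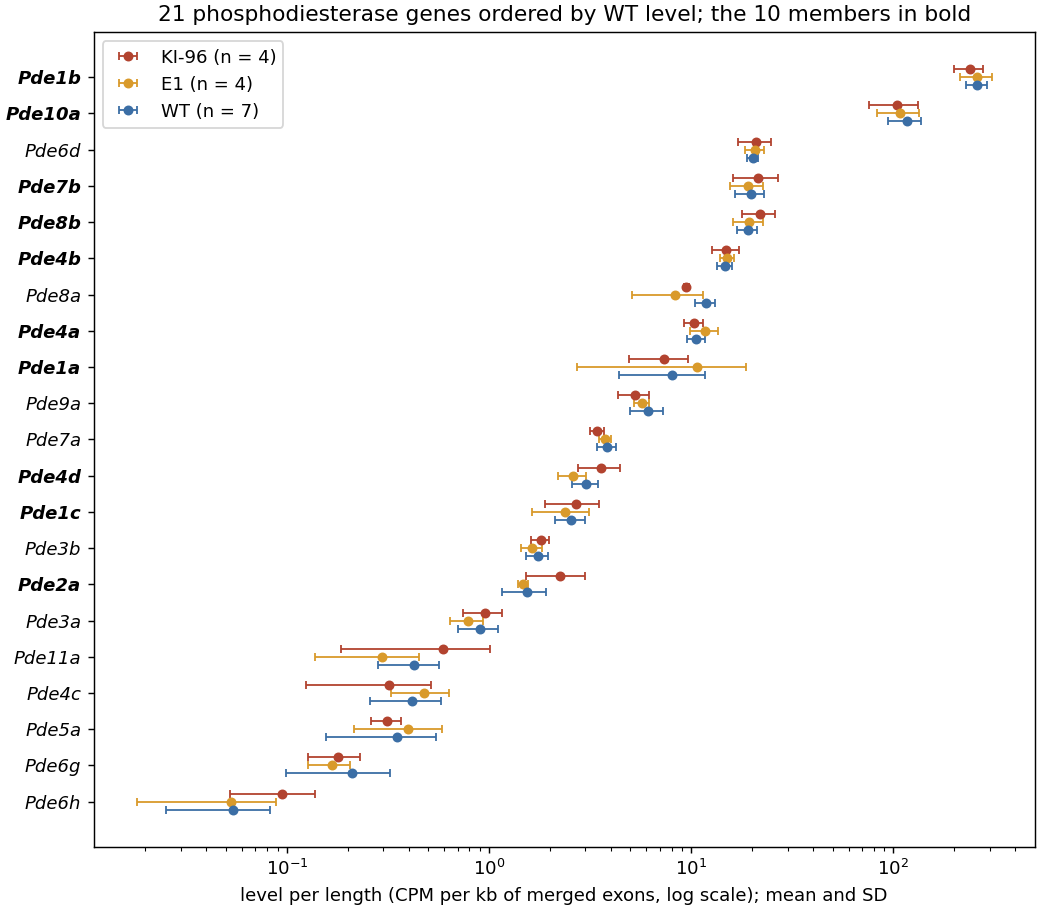
Levels of 21 Pde genes in CPM per kb of merged exons on a log axis, as mean and SD by genotype (KI-96 n = 4, E1 n = 4, WT n = 7), with the 10 genes described here in bold. Pde1b and Pde10a stand above all others in each genotype. Pde2a is the lowest of the 10 on this scale, with 64.3% of its exon bases shared with Gm45837.

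Below these, the WT order was Pde7b (19.7 CPM per kb), Pde8b (19.0), Pde4b (14.6), Pde4a (10.6), Pde1a (8.06), Pde4d (3.02), Pde1c (2.55) and Pde2a (1.54). The steps from Pde1b to Pde10a and from Pde10a to Pde7b held in every library, with no overlap between the ranges in any genotype. Further down, Pde1a exceeded Pde4d in 7 of 7 WT libraries without overlap, but the ranges of these 2 overlapped in E1. Pde8b and Pde4b overlapped in KI-96 and E1 but not in WT, and Pde4b and Pde4a overlapped in WT but not in KI-96 or E1. Pde7b exceeded Pde8b in 2 of 4 KI-96, 2 of 4 E1 and 4 of 7 WT libraries, and the ranges overlapped in each genotype. Pde4a and Pde1a also overlapped in each genotype, as did Pde4d with Pde1c and Pde1c with Pde2a. With the longest transcript as length, Pde4b (35.9) came before Pde8b (26.4 CPM per kb). The level of Pde2a carries a limit of its own. Of its 6149 merged exon bases, 3955 (64.3%) also belong to Gm45837, an overlapping gene on the same strand that had 0 to 2 reads in each library. The sources used here do not say how the authors' counting treated reads in shared exons. Over its 2194 unshared bases alone its WT level would be 4.31 CPM per kb, which would place it above Pde4d.

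KI-96 against WT asks whether the RNA levels of these genes differ between these genotypes. Pde10a and Pde1b left the WT range in KI-96 replicate 4 alone, below it, Pde7b and Pde8b left it on both sides, and 0 of the 10 genes passed the edgeR quasi-likelihood test against WT (adjusted p under 0.05 over all genes). Over all genes 0% were called, DESeq2 and limma-voom likewise called 0 of the 10, and 1 of the 10 had an unadjusted p under 0.05, against 10.5% of all genes. Of the 10, 6 had positive log2 fold changes, against 47.9% of all genes, with a median of 0.05 against -0.01 over all genes. For 9 of 10 the 95% interval of the log2 fold change lay within 1 of 0 in either direction, the exception being Pde1a, and so it did for 14445 of the 18278 genes tested. In 0 of the 10 did the groups not overlap, against 1.29% of all genes (0.635% with every KI-96 mouse higher, 0.651% lower). The 8 thalamic and pallidal markers all had positive log2 fold changes in this comparison, with a median of 0.95, 100.1 to 379 summed CPM in KI-96 and 86.5 to 171 in WT. All 8 choroid plexus markers had negative ones (median -0.99, 38.1 to 95.6 CPM in KI-96 and 46.6 to 417 in WT). So had 9 of 10 oligodendrocyte markers (median -0.15, 8902 to 14380 CPM in KI-96 and 10770 to 15510 in WT) and 9 of 15 cortical markers (median -0.70). None of the markers on these lists was at 0 throughout a group, 0 passed the test, and their part in the values below was not tested.

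Pde10a (chromosome 17, 8525372 to 8986648, GRCm38) had 1308, 1685, 1506 and 839 CPM in KI-96 replicates 1 to 4, against 1215 to 2002 CPM with a median of 1431 in WT. Replicates 1 to 3 were inside the WT range and replicate 4 was below all 7 WT mice. The log2 fold change of Pde10a was -0.16 (SE 0.19, 95% interval -0.55 to 0.23, adjusted p = 0.781), and without replicate 4 it was 0.01. That mouse also had the highest thalamic and pallidal marker level of the 15 and the lowest spiny neuron marker mean, 8.60. Replicate 3 came next in both, with 229 summed CPM and 8.63, and its Pde10a level of 1506 CPM was above the WT median. The part of these markers in the low Pde10a value of replicate 4 was not tested. In bulk tissue fewer cells of a type and less RNA per cell cannot be told apart. With the spiny neuron marker mean as a covariate, a fit chosen after seeing the data, the log2 fold change was -0.09 (SE 0.13).

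Pde1b (chromosome 15, 103503034 to 103530052), the calcium-activated enzyme most typical of spiny neurons, had 1359, 1552, 1157 and 1082 CPM in KI-96 replicates 1 to 4, against 1146 to 1660 CPM with a median of 1441 in WT. Only replicate 4 lay below the WT range. The log2 fold change was -0.12 (SE 0.14, adjusted p = 0.782).

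The cyclic AMP-preferring Pde7b and Pde8b had positive fold changes that did not pass. Pde7b (chromosome 10, 20398004 to 20725078) had 305, 283, 312 and 168.5 CPM in KI-96, against 192 to 305 CPM with a median of 242 in WT, a difference of 0.12 on the log2 scale (SE 0.16, adjusted p = 0.816). Pde8b (chromosome 13, 95024454 to 95250336) had 132.5, 145, 145 and 94.4 CPM in KI-96, against 96.2 to 131 CPM with a median of 107 in WT. Replicates 1 to 3 thus exceeded every WT mouse for Pde8b, and replicate 4 lay below them all. On the log2 scale the difference was 0.21 (SE 0.13, adjusted p = 0.584). Without replicate 4 it was 0.33 for Pde8b (adjusted p = 0.165) and 0.29 for Pde7b (adjusted p = 0.305). An antisense gene, Gm48420, shares 7.60% of the Pde8b exon bases and had 3 to 17 reads per library.

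The PDE4 genes encode the enzymes that the drug rolipram inhibits. Pde4b (chromosome 4, 102087543 to 102607259) had 175, 180.1, 146 and 129 CPM in KI-96, against 134 to 171 CPM with a median of 158 in WT, and its log2 fold change of 0.03 had a 95% interval of -0.19 to 0.24. Pde4a (chromosome 9, 21165714 to 21213248) had 73.3, 70.8, 84.0 and 88.3 CPM in KI-96, against 74.2 to 97.9 CPM with a median of 77.2 in WT (log2 fold change -0.03, SE 0.11). Pde4d (chromosome 13, 108449948 to 109953461) had 49.3, 35.9, 54.0 and 33.6 CPM in KI-96, against 28.8 to 42.35 CPM with a median of 38.9 in WT. KI-96 replicates 1 and 3 were above all WT mice, and the log2 fold change of 0.25 (SE 0.14, adjusted p = 0.549) was 0.12 without replicate 3.

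Pde2a (chromosome 7, 101421691 to 101512827) had the smallest p of the 10. It had 11.6, 15.0, 19.6 and 9.20 CPM in KI-96, against 5.52 to 12.2 CPM with a median of 9.78 in WT. These rest on 160 to 359 counts per library in KI-96 and 106 to 276 in WT. Replicates 2 and 3 exceeded every WT mouse, and the other 2 lay within the WT range. The log2 fold change was 0.55 (SE 0.20, 95% interval 0.13 to 0.98, unadjusted p = 0.0137, adjusted p = 0.365). Without KI-96 replicate 3, the library that stood apart on the first principal component, it was 0.34.

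**Figure D2:**
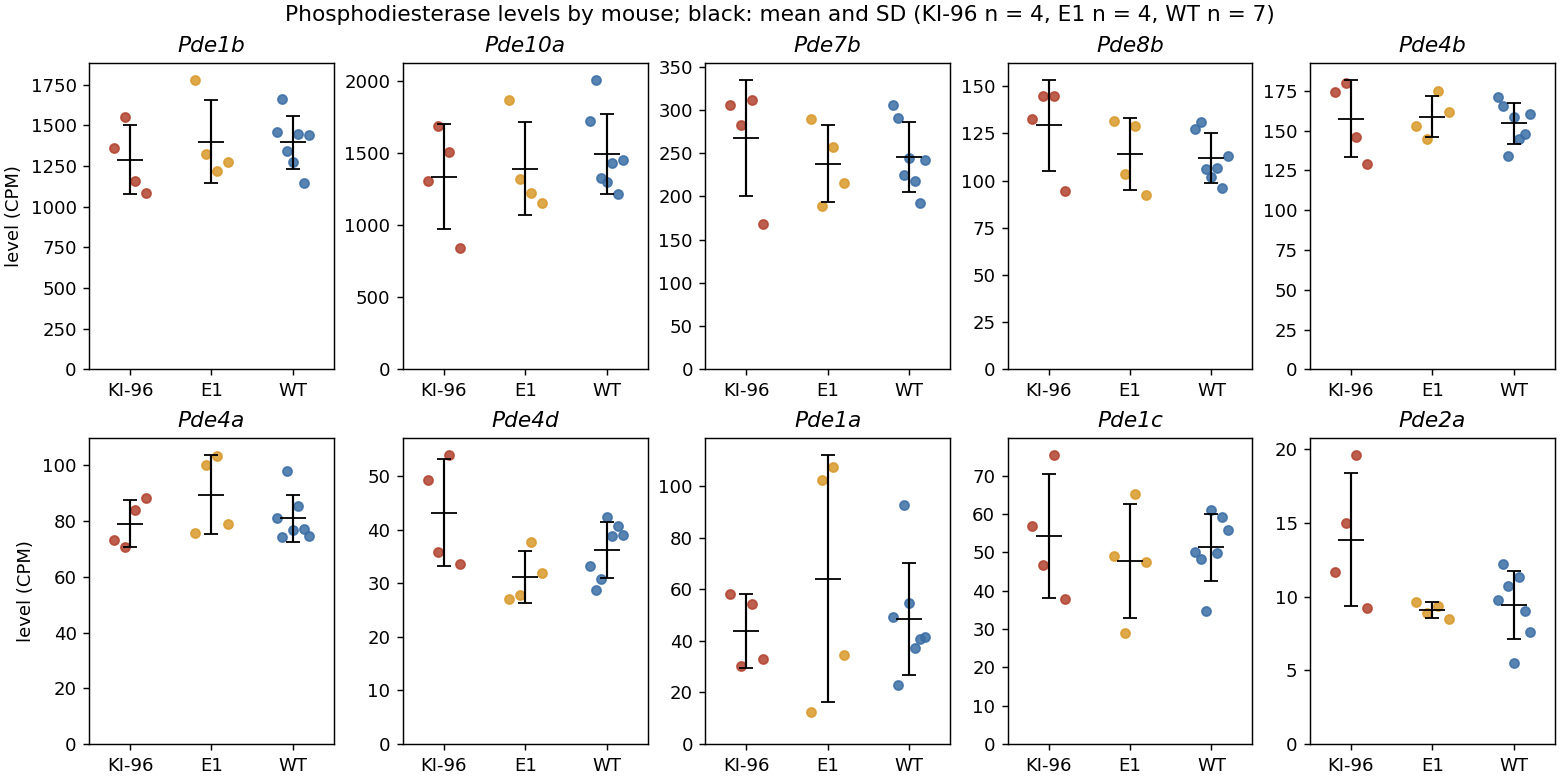
Level in CPM of each of the 10 genes in each mouse, by genotype (KI-96 n = 4, E1 n = 4, WT n = 7), with points for mice and black bars for mean and SD, on axes that start at 0. The genotypes overlap for every gene, and Pde1a is the most scattered, from 12.6 to 107 CPM in E1.

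Pde1c (chromosome 6, 56069804 to 56569103) and Pde1a (chromosome 2, 79834453 to 80129458), the remaining calcium-activated enzymes, were lower expressed. Pde1c had 57.0, 46.8, 75.4 and 37.9 CPM in KI-96, against 34.7 to 61.2 CPM with a median of 49.96 in WT (log2 fold change 0.08, SE 0.20). Pde1a had 58.1, 30.1, 54.15 and 33.1 CPM in KI-96, against 23.0 to 92.7 CPM with a median of 41.7 in WT. Its log2 fold change of -0.14 had a wide 95% interval, -1.22 to 0.93.

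E1 was set against the same 7 WT mice. Of the 10, 0 passed edgeR, DESeq2 or limma-voom, against 0.00547% of all genes (1 of 18278) by edgeR, and 0 of 10 had an unadjusted p under 0.05, against 8.75% of all genes. Log2 fold changes were positive for 5 of 10, against 49.7% of all genes, with a median of -0.02 against -0.00 over all genes. In 0 of 10 did the groups not overlap, against 1.69% of all genes (0.892% with every E1 mouse higher, 0.799% lower). For 9 of 10 the 95% interval lay within 1 of 0, again with Pde1a as the exception, against 14455 of 18278 genes. All 10 oligodendrocyte markers had negative log2 fold changes (median -0.38), with 6856 to 16480 summed CPM in E1 and 10770 to 15510 in WT, as had 9 of 10 astrocyte markers (median -0.18, 3579 to 4357 CPM in E1 and 3911 to 4795 in WT) and all 8 choroid plexus markers (median -0.42, 28.25 to 91.97 CPM in E1 and 46.6 to 417 in WT). Of the cortical markers, 13 of 15 had positive log2 fold changes (median 1.00, 384 to 2037 CPM in E1 and 346 to 1851 in WT). Of the thalamic and pallidal markers, 6 of 8 had negative ones (median -0.37, 82.55 to 118 CPM in E1 and 86.5 to 171 in WT). E1 replicates 2 and 3, which were high in cortical markers, had oligodendrocyte sums of 7911 and 6856 CPM. Replicates 1 and 4 had 11000 and 16480 CPM. None of the markers on these lists was at 0 throughout a group, 0 passed the test, and their part in the values below was not tested.

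Pde10a had 1865, 1319, 1223 and 1155 CPM in E1 replicates 1 to 4, against 1215 to 2002 CPM in WT. Only replicate 4 was below the WT range. The difference was -0.10 on the log2 scale (SE 0.19, 95% interval -0.49 to 0.29, adjusted p = 0.883), and it was -0.28 without E1 replicate 1. With the spiny neuron marker mean as a covariate it was -0.19 (SE 0.13), farther from 0 than without it. Pde1b had 1777, 1324, 1222 and 1278 CPM in E1, against 1146 to 1660 CPM in WT, with replicate 1 above every WT mouse. That mouse also had the highest spiny neuron marker mean of the 15, 9.39. The log2 fold change of Pde1b was 0.00 (SE 0.14, 95% interval -0.28 to 0.29).

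Pde7b had 289, 189, 257 and 215 CPM in E1, against 192 to 305 CPM in WT, and Pde8b had 132, 103, 129 and 92.55 CPM in E1, against 96.2 to 131 CPM in WT. Replicate 2 was below every WT mouse for Pde7b and none was above, while for Pde8b replicate 1 was above and replicate 4 below. The log2 fold changes were -0.04 for Pde7b (SE 0.17) and 0.03 for Pde8b (SE 0.13). Pde4b had 153, 145, 175 and 162 CPM in E1, against 134 to 171 CPM in WT (log2 fold change 0.04, SE 0.10). Pde4d had 27.2, 27.75, 37.8 and 32.0 CPM in E1, against 28.8 to 42.35 CPM in WT, so that 2 of the 4 mice were below all WT mice. Its log2 fold change was -0.22 (SE 0.15, adjusted p = 0.661). Pde1c had 48.9, 29.0, 65.3 and 47.5 CPM in E1, against 34.7 to 61.2 CPM in WT (log2 fold change -0.11, SE 0.20). Pde2a was nearly level among E1 mice at 9.63, 8.87, 9.36 and 8.45 CPM, all within the WT range of 5.52 to 12.2 CPM (log2 fold change -0.06, SE 0.21).

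Pde1a and Pde4a were highest in the 3 libraries high in cortical markers. Pde1a had 12.55, 102, 107 and 34.3 CPM in E1 replicates 1 to 4, against 23.0 to 92.7 CPM with a median of 41.7 in WT, where the 92.7 CPM was replicate 3. The 3 libraries high in cortical markers therefore held the 3 highest Pde1a values, 102 and 107 CPM in E1 and 92.7 CPM in WT, and the other 12 libraries lay between 12.55 and 58.1 CPM. Pde4a was likewise highest in the same 3 libraries, with 100.3 and 103 CPM in those E1 mice, 97.9 CPM in that WT mouse and 70.8 to 88.3 CPM in the other 12. Slc17a7, the vesicular glutamate transporter of cortical neurons, had 914 and 597 CPM in E1 replicates 2 and 3 and 816 CPM in WT replicate 3, against 5.97 to 91.0 CPM in the other 12. Among those 12, Pearson's r with the cortical marker mean was -0.06 for Pde1a and 0.06 for Pde4a (Spearman's rho -0.30 and -0.10), given as descriptions. Pde1c was lowest in 2 of the 3 libraries, with 29.0 CPM in E1 replicate 2 and 34.7 CPM in WT replicate 3, against 37.9 to 75.4 CPM in the other 12, among which r was -0.45 (rho -0.52); E1 replicate 3 had 65.3 CPM.

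The fold changes of both genes moved with these libraries. For E1 against WT, the value for Pde1a was 0.41 on the log2 scale over all libraries (SE 0.49, adjusted p = 0.813), -0.82 (SE 0.39) without the 3 libraries and -0.27 (SE 0.40) with the cortical marker mean as a covariate. Leaving out the 3 libraries leaves 2 E1 mice, replicates 1 and 4. For Pde4a it was 0.14 (SE 0.11, adjusted p = 0.696), -0.02 without the 3 libraries and 0.05 with the covariate. Neither gene passed the threshold in any of these fits.

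**Figure D3:**
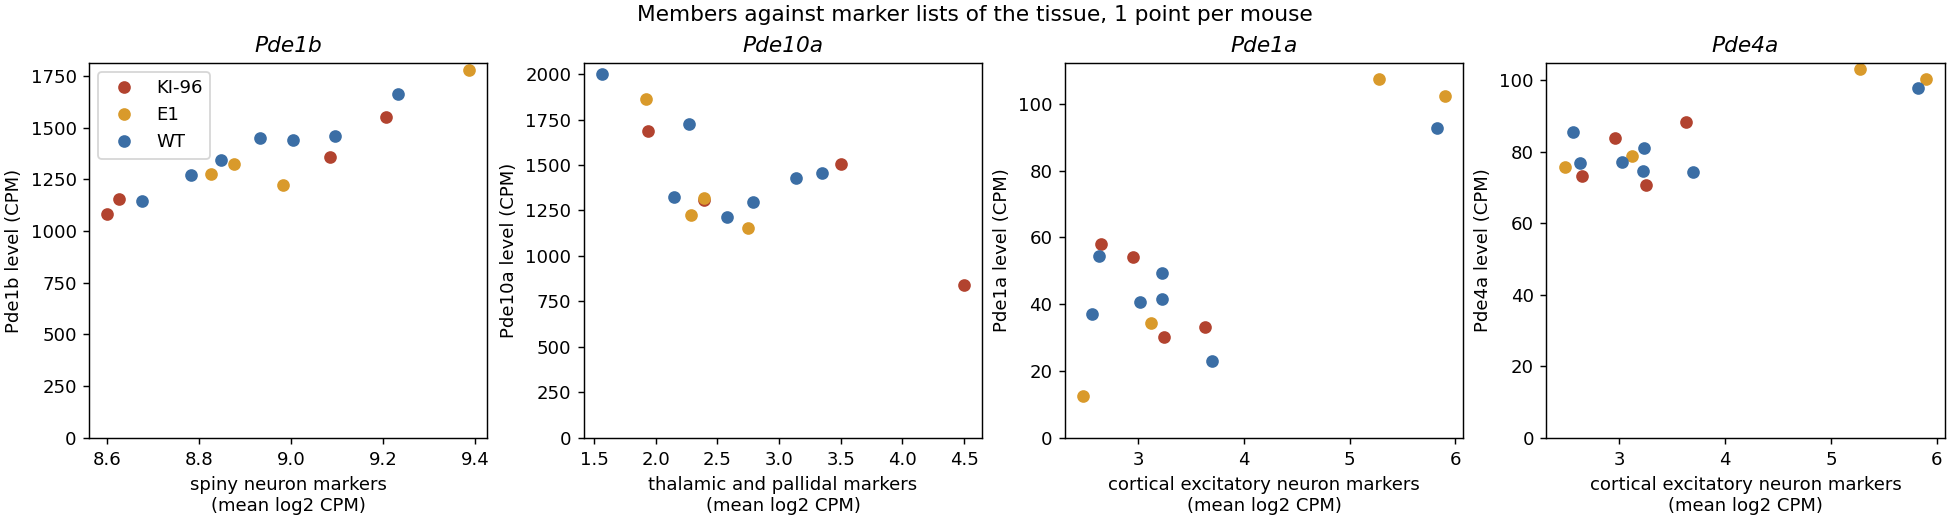
Levels in CPM of Pde1b, Pde10a, Pde1a and Pde4a against the mean log2 CPM of a marker list, with 1 point per mouse coloured by genotype. Pde1b climbs with the spiny neuron markers, the lowest Pde10a point is the mouse highest in thalamic and pallidal markers, and the 3 mice at the right of the cortical panels hold the highest Pde1a and Pde4a levels.

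KI-96 was also set against E1, and here none of the 8 mice had more than 2 Y-linked reads. Of the 10 genes, 0 passed edgeR, DESeq2 or limma-voom, against 0% of all genes by edgeR, and 2 of 10 had an unadjusted p under 0.05, against 14.3% of all genes. In 0 of 10 did the groups not overlap, against 4.79% of all genes (2.29% with every KI-96 mouse higher, 2.5% lower). Log2 fold changes were positive for 5 of 10, against 49.4% of all genes, with a median of 0.08 against -0.00 over all genes. The 95% interval lay within 1 of 0 for 8 of 10, all but Pde1a and Pde2a, against 13248 of 18278 genes. Marker lists also differed here: all 8 thalamic and pallidal markers had positive log2 fold changes (median 1.17, 100.1 to 379 summed CPM in KI-96 and 82.55 to 118 in E1, none at 0 throughout a group), and 12 of 15 cortical markers had negative ones (median -1.73). Their part in the values below was not tested.

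The 2 with an unadjusted p under 0.05 were Pde4d and Pde2a. Pde4d had 49.3, 35.9, 54.0 and 33.6 CPM in KI-96, against 27.2, 27.75, 37.8 and 32.0 CPM in E1. KI-96 replicates 1 and 3 were above all E1 mice and the other 2 lay within the E1 range. The log2 fold change of Pde4d was 0.47 (SE 0.16, 95% interval 0.13 to 0.81, unadjusted p = 0.0101, adjusted p = 0.246). Pde2a had 11.6, 15.0, 19.6 and 9.20 CPM in KI-96, against 9.63, 8.87, 9.36 and 8.45 CPM in E1, so that 3 of 4 KI-96 mice exceeded every E1 mouse. For Pde2a it was 0.61 (SE 0.23, unadjusted p = 0.0174, adjusted p = 0.273), and 0.39 without KI-96 replicate 3. These comparisons share the KI-96 mice with the comparison against WT and are not independent of it.

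For the other 8 genes the log2 fold change in KI-96 against E1 ran from -0.55 for Pde1a (SE 0.56) to 0.19 for Pde1c (SE 0.23). Pde10a had -0.06 (SE 0.21, 95% interval -0.50 to 0.38) and Pde1b -0.12 (SE 0.15, 95% interval -0.44 to 0.20). Pde8b had 0.18 (SE 0.15), with 3 of 4 KI-96 mice above every E1 mouse, and Pde7b had 0.17 (SE 0.19). Without KI-96 replicate 4 these were 0.30 for Pde8b and 0.33 for Pde7b. Pde4a had -0.18 (SE 0.12) and Pde4b -0.01 (SE 0.11). Without the 3 libraries high in cortical markers Pde1a had 0.90 (SE 0.41, adjusted p = 0.467), the opposite sign.

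**Figure D4:**
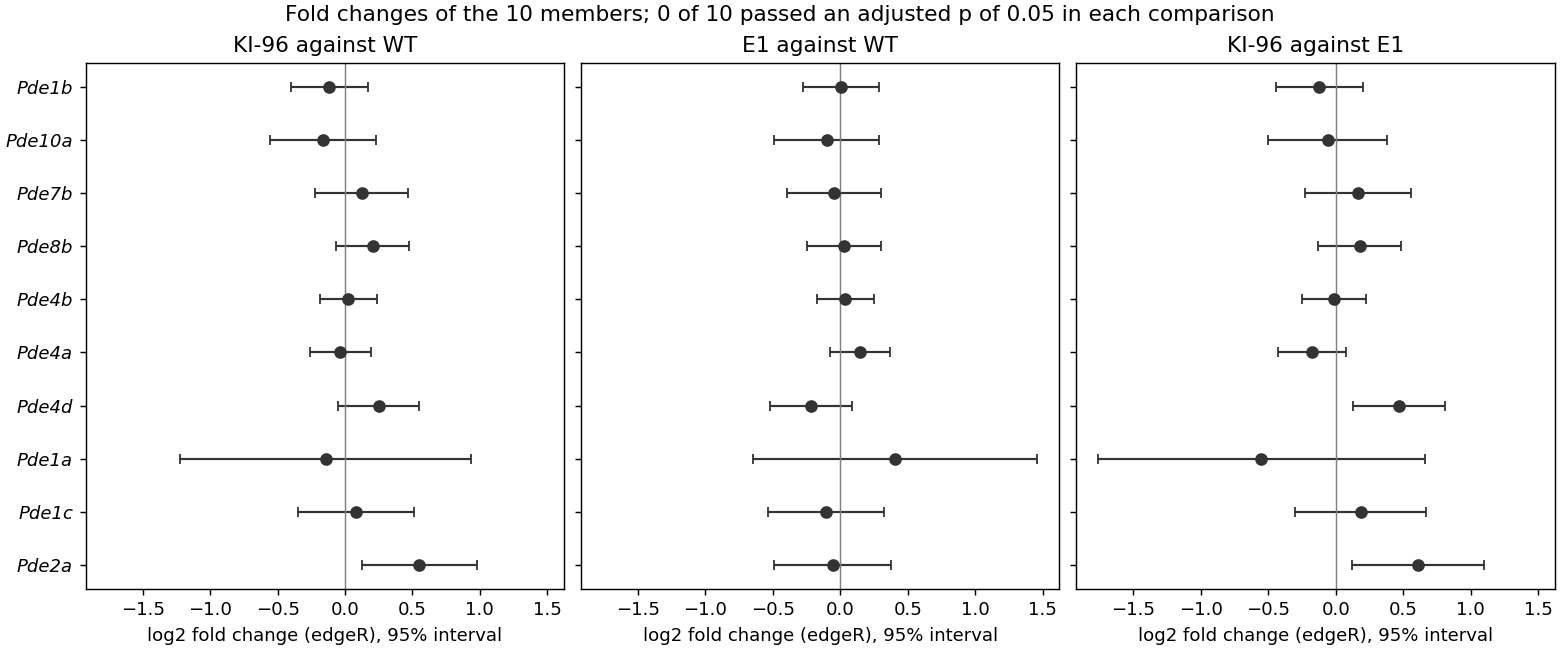
Log2 fold change and 95% interval from edgeR of each of the 10 genes in KI-96 against WT, E1 against WT and KI-96 against E1. The intervals of Pde2a in KI-96 against WT and of Pde2a and Pde4d in KI-96 against E1 lie above 0, but 0 of 10 passed after adjustment over all genes in each comparison.

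Between individual mice the 10 genes did not vary alike. The SD of log2 CPM within genotypes was 0.15 for Pde4b, 0.17 for Pde4a and 0.21 for Pde1b, below the median of 0.27 over all genes tested, and 0.32 for Pde10a. Pde1a, at 0.88, varied more than 96.7% of genes tested. Pde1b followed the spiny neuron markers most closely (Pearson's r 0.93, Spearman's rho 0.92, n = 15, r 0.88 without the 2 mice farthest from the median), and Pde10a did so less (r 0.77, rho 0.73, r 0.64 without the same 2). These correlations are descriptions over libraries that share tissue composition, and no p is given.

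Pde1b and Pde10a varied together (r 0.85, rho 0.83, r 0.77 without the 2 farthest mice), and so did Pde7b and Pde8b (r 0.89, rho 0.85, r 0.90 without the 2 farthest). Pde10a had r 0.75 with Pde7b and 0.70 with Pde8b (rho 0.68 and 0.71, r 0.62 and 0.66 without the 2 farthest). A second pair, Pde1c and Pde4d, had r 0.75 (rho 0.77, r 0.68 without the 2 farthest), and both were highest in KI-96 replicate 3, at 75.4 and 54.0 CPM.

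**Figure D5:**
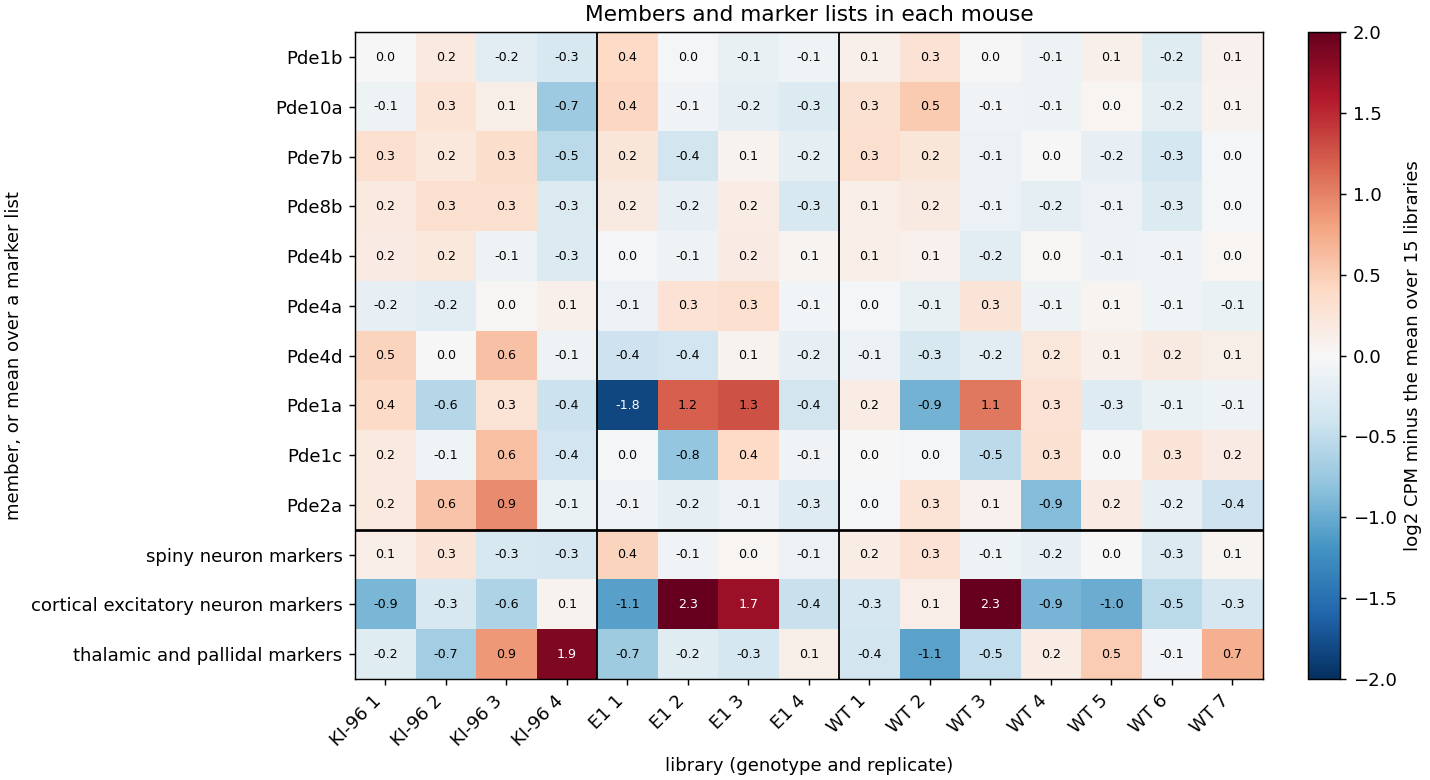
Log2 CPM minus its mean over the 15 libraries for each of the 10 genes and for 3 marker lists, with libraries as columns in the order KI-96, E1 and WT. The 3 columns high in cortical markers, E1 2, E1 3 and WT 3, are also the highest for Pde1a, and the lowest cell of the Pde10a row is KI-96 4.

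Genes of the whole transcriptome whose levels were most like each of the 10 over the 15 libraries also differed between them. For Pde10a they were Atp2b1, a calcium pump of the plasma membrane (r 0.92), St8sia3 and Zswim6 (r 0.90 each). For Pde1b they were Cacna2d3, a calcium channel subunit (r 0.94), and Kcnab1 (r 0.93). Those most like Pde7b included Adcy5, the main adenylyl cyclase of striatum (r 0.92), and the spiny neuron transcription factor Bcl11b (r 0.91), after Pcdhgb7 (r 0.92). For Pde8b they were Dlgap2 (r 0.96), Akap9, an anchor of protein kinase A (r 0.95), and Gnal, a stimulatory G protein subunit abundant in striatum (r 0.94). Adcy5, Bcl11b and Gnal are themselves on the spiny neuron marker list.

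For Pde1a they were Herc3 and Snap91 (r 0.95 each), and for Pde4a Nrn1 (r 0.89), a cortical marker by the list used here, Galnt9 and Sdk2 (r 0.89 each). For Pde1c they were Lpp, Zbtb20 and Lats1 (r 0.93, 0.91 and 0.91), and for Pde4d Slc39a9, Zfp318 and Dis3l (r 0.93, 0.93 and 0.92). For Pde4b they were Tarsl2, Mtmr6 and Hs3st5 (r 0.87, 0.87 and 0.86), and for Pde2a Capn15, Crebbp and Plec (r 0.90, 0.86 and 0.85).

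The other genes of the pathway were read from lists. Of 14 further Pde genes 11 were tested, and 0 passed in any comparison. For 1 of the 11 every KI-96 mouse was below every WT mouse, against 0.651% of all genes. In the other comparisons the groups overlapped for all 11. Unadjusted p was under 0.05 for 0 in KI-96 against WT (all genes 10.5%), 1 in E1 against WT (8.75%) and 1 in KI-96 against E1 (14.3%). Pde8a, the nearest relative of Pde8b, had 33.5 ± 13.0 CPM in E1 (SD, n = 4) and 47.75 ± 5.36 CPM in WT (n = 7), or -0.51 on the log2 scale (SE 0.16, adjusted p = 0.453), and 38.3 ± 1.21 CPM in KI-96, or -0.32 against WT (SE 0.16, adjusted p = 0.503). Pde8a had the smallest p of the list in both comparisons with WT, followed by Pde11a in E1 against WT (log2 fold change -0.54, SE 0.41) and Pde7a in KI-96 against WT (-0.16, SE 0.09). In KI-96 against E1 the smallest p belonged to Pde11a (1.02, SE 0.46, adjusted p = 0.323), the gene with an unadjusted p under 0.05 there, and the second to Pde6h (0.80, SE 0.56). Both were low, with mean levels in KI-96 and E1 of 3.10 and 1.53 CPM for Pde11a and 0.74 and 0.42 CPM for Pde6h.

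Of the 10 adenylyl cyclases, which make cyclic AMP, all were tested and 0 passed in any comparison. Their unadjusted p was under 0.05 for 0 in KI-96 against WT (all genes 10.5%), 1 in E1 against WT (8.75%) and 2 in KI-96 against E1 (14.3%). Median log2 fold changes were 0.12, -0.13 and 0.25 in that order. In KI-96 against E1 the smallest p-values were those of Adcy9 (log2 fold change 0.42, SE 0.18, adjusted p = 0.298) and Adcy3 (0.29, SE 0.13). In KI-96 against WT they were those of Adcy3 (0.24, SE 0.12) and Adcy4 (0.37, SE 0.29), and in E1 against WT those of Adcy7 (-0.35, SE 0.17) and Adcy9 (-0.29, SE 0.16). Of 9 guanylyl cyclases and receptors with cyclase activity 8 were tested and 0 passed. Unadjusted p was under 0.05 for 1, Gucy1a2 in KI-96 against E1, against 14.3% of all genes in that comparison. Gucy1a2, a subunit of the nitric oxide receptor, had the smallest p in each comparison, with log2 fold changes of 0.25 (SE 0.25) in KI-96 against WT, -0.52 (SE 0.26) in E1 against WT and 0.76 (SE 0.29) in KI-96 against E1. Second were Gucy2g in KI-96 against WT (-0.73, SE 0.78) and KI-96 against E1 (-1.59, SE 0.84), and Gucy1a1 in E1 against WT (-0.21, SE 0.12). Gucy2g was low, with mean levels of 0.59 CPM in KI-96, 1.77 CPM in E1 and 0.99 CPM in WT.

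Of 21 effectors of the cyclic nucleotides 17 were tested and 0 passed. Their unadjusted p was under 0.05 for 0 in KI-96 against WT (all genes 10.5%), 2 in E1 against WT (8.75%) and 2 in KI-96 against E1 (14.3%). For 1 of the 17 every KI-96 mouse was above every E1 mouse, against 2.29% of all genes. The pacemaker channel Hcn2 had mean levels of 262 CPM in KI-96, 190.2 CPM in E1 and 233.5 CPM in WT, with log2 fold changes of 0.46 in KI-96 against E1 (SE 0.11, adjusted p = 0.178), 0.17 in KI-96 against WT (SE 0.10) and -0.30 in E1 against WT (SE 0.10, adjusted p = 0.484). Hcn4 had 0.83 (SE 0.30) in KI-96 against E1 and -0.58 (SE 0.27) in E1 against WT, and Rapgef3, a cyclic AMP-activated exchange factor, had -0.27 (SE 0.14) in KI-96 against WT. Of 17 partners of the phosphodiesterases all were tested and 0 passed. Their unadjusted p was under 0.05 for 2 in KI-96 against WT (all genes 10.5%), 1 in E1 against WT (8.75%) and 4 in KI-96 against E1 (14.3%). For 2 of these 17 every KI-96 mouse was above every E1 mouse, against 2.29% of all genes. Log2 fold changes were positive for 15 of 17 in KI-96 against WT (median 0.15, against 47.9% of all genes and a median of -0.01), 11 of 17 in E1 against WT (median 0.12) and 9 of 17 in KI-96 against E1 (median 0.25). In KI-96 against WT these were led by Arrb1, a β-arrestin (0.40, SE 0.12, adjusted p = 0.315), and Pde4dip, an anchor of PDE4D (0.34, SE 0.12, adjusted p = 0.365). In E1 against WT they were led by Akap13 (0.30, SE 0.09) and Dlg4 (0.26, SE 0.14), and in KI-96 against E1 by Akap1 (0.25, SE 0.09) and Akap12 (0.44, SE 0.19).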

How the data were processed

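RNA of mouse striatum was sequenced in 15 libraries, 1 per mouse. The deposited table holds raw read counts per gene, not normalized by the authors, since they are whole numbers with unequal totals. STAR, HTSeq, DESeq2 1.24.0 and GRCm38 appear, per the submitters' processing notes, without role or setting. Strandedness and annotation release are not given in the sources. Identifiers were matched to GENCODE annotation of GRCm38 without version (54165 of 54232; 9 of the 10 genes also with it, all but Pde10a), which gave symbols, coordinates and exon lengths. Counts per gene pool all its isoforms.

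Groups were taken from the sample titles. Genes were kept with edgeR 4.0.16's default filter (minimum count 10), scaled by TMM, and fitted by a robust quasi-likelihood model over all 15 libraries with genotype as the factor. Tests were two-sided with Benjamini-Hochberg adjustment over 18278 genes and a threshold of 0.05. CPM use the TMM-scaled library sizes, log2 CPM a prior count of 2, and standard errors come from the fold change and F. Levels were divided by merged exon length. Alternatives were DESeq2 1.42.0, limma 3.58.1 (voom), other scaling, no filter, fewer groups, marker, Y-linked and replicate-number covariates, and leaving out libraries. The functions were tested on simulated counts. All 33 within-genotype pairs of libraries differed by more than sampling noise (smallest chi-square per degree of freedom 7.78). Counts limit precision: Pde2a had 106 to 359 reads per library.

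The genes, lists and alternatives were chosen with earlier results of these data known. Named were the 10 genes, from each pathway list any gene past the threshold or otherwise the 2 with the smallest p per comparison, and per gene the 3 with the highest Pearson's r of log2 CPM (mean of at least 5 CPM, no predicted genes), of which 1 each for Pde1a and Pde1b is not reported here. Genes outside this rule, such as Slc17a7, were chosen after their values were seen.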

Additional observations from a re-analysis of the deposited data

How the results depend on the processing

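Under all 10 alternatives and on leaving out each library in turn, 0 of the 10 genes passed the threshold in any comparison. The smallest adjusted p over all settings was 0.0814, for Pde4d in KI-96 against E1 without KI-96 replicate 4. With the Y-linked covariate, KI-96 and E1 are set against WT replicate 1 alone, the only WT mouse without Y-linked reads. The SE of Pde4b in E1 against WT was 0.18 in that fit and 0.10 in the main one, so it could see less. Counts over all genes moved more. In E1 against WT, with 1 gene past the threshold, they were 58 with DESeq2, 2 with limma-voom, 4 with the replicate block and 0 with no filter, with only the groups compared, with the cortical, Y-linked or spiny neuron covariate and without the 3 libraries high in cortical markers. In KI-96 against WT, with 0, they were 72 with DESeq2, 1 with limma-voom, 1 with no filter and 6 with the replicate block. In KI-96 against E1, with 0, they were 206 with DESeq2, 3 with no filter and 1 with the Y-linked covariate. Leaving out 1 library gave 0 to 257, 0 to 11 and 0 to 190 genes in the same order, with the highest counts without E1 replicate 4, WT replicate 1 and E1 replicate 4.

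Among fold changes of the 10 genes refitted under the alternatives, 268 kept their sign and 32 turned. With limma-voom the sign turned for Pde1b at -0.0059 for E1 against WT. With no low-count filter the sign turned for Pde1b at -0.00078 for E1 against WT. With the cortical marker covariate the sign turned for Pde1a at -0.27, Pde1c at 0.030 and Pde7b at 0.0032 for E1 against WT, Pde1a at 0.11 and Pde4a at 0.0052 for KI-96 against WT, Pde1a at 0.38 for KI-96 against E1. Without the 3 libraries high in cortical markers the sign turned for Pde1a at -0.82, Pde4a at -0.022, Pde4b at -0.0096, Pde7b at 0.017 and Pde8b at -0.011 for E1 against WT, Pde1a at 0.085, Pde1c at -0.0014, Pde4a at 0.0093 and Pde4b at -0.013 for KI-96 against WT, Pde1a at 0.90 and Pde4a at 0.031 for KI-96 against E1. The fit with the Y-linked covariate rests on 1 WT mouse, replicate 1, in the comparisons with WT. In that fit the sign turned for Pde1b at -0.061, Pde4b at -0.11 and Pde8b at -0.16 for E1 against WT, Pde4b at -0.12 and Pde7b at -0.19 for KI-96 against WT. With the replicate number as a block the sign turned for Pde1b at -0.038 and Pde8b at -0.041 for E1 against WT, Pde4b at -0.0038 and Pde7b at -0.022 for KI-96 against WT. With the spiny neuron marker covariate (chosen after seeing the data) the sign turned for Pde1b at -0.066 and Pde8b at -0.025 for E1 against WT, Pde10a at 0.095 and Pde4b at 0.030 for KI-96 against E1. From leaving out 1 library, 422 values kept it and 28 turned. In E1 against WT the ranges were -0.13 to 0.062 for Pde1b, -0.30 to 0.071 for Pde1c, -0.15 to 0.015 for Pde2a, -0.016 to 0.079 for Pde4b, -0.15 to 0.050 for Pde7b and -0.048 to 0.12 for Pde8b. In KI-96 against WT the ranges were -0.30 to 0.0051 for Pde10a, -0.31 to 0.093 for Pde1a, -0.12 to 0.22 for Pde1c, -0.094 to 0.016 for Pde4a and -0.048 to 0.11 for Pde4b. In KI-96 against E1 the ranges were -0.19 to 0.11 for Pde10a, -0.22 to 0.014 for Pde1b, -0.017 to 0.37 for Pde1c and -0.085 to 0.070 for Pde4b. The cause was not tested for these turns. The order of levels kept 8 of 10 places with the longest transcript as length and 10 with DESeq2 size factors, and 5 with unshared exon bases (chosen after seeing the data), where Pde2a moved ahead of Pde4d and Pde8b ahead of Pde7b by construction of their shorter lengths.

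The labels do not say whether the replicate numbers pair the mice across genotypes. Of 12 same-numbered pairs the deviations correlated above 0.1 in 4 (-0.24 to 0.34). Among libraries of the other genotypes, 7 of 12 libraries were closest to one of their own number. Whether the numbers mark a shared batch was not tested. The block changed no call among the 10 genes. Pde2a, with 106 reads at its lowest in WT replicate 4, and Pde1a, with the widest intervals, limit what could be seen.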

Other observations

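The balance of the 2 genes with the highest levels spread most widely among KI-96 mice. Pde1b over Pde10a, per kb, was 2.48, 2.19, 1.83 and 3.07 in KI-96 replicates 1 to 4, against 2.27 to 2.64 in E1 and 1.98 to 2.41 in WT. KI-96 replicates 3 and 4 thus held the lowest and the highest ratio of the 15 mice. These are also the libraries that stood apart on the first principal component (replicate 3) and in thalamic and pallidal markers (replicate 4, with replicate 3 second). The summed per-kb level of the 21 tested Pde genes was 470 ± 71.3 CPM per kb in KI-96, 492 ± 68.3 in E1 and 500.0 ± 54.8 in WT (SD, n = 4, 4 and 7), and the 10 genes made up 90.6%, 91.3% and 90.7% of it. Pde6d, which binds lipid-modified proteins and is not itself a catalytic subunit, was the highest of the 11 others at 20.2 CPM per kb in WT. Of 30 sets of values, 1 per gene and genotype, 0 held a mouse beyond Dixon's 95% limit.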
